A study of Mus musculus with 8 samples.

Results

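Untreated CT26 tumours were compared with untreated CT26 cultures across all genes. CT26 is a mouse colorectal carcinoma line that grows as a transplanted tumour in mice and as a cell culture. The tumours, labelled as transplanted and treated with normal saline, gave 2 libraries, and the cultures, kept for 48 h with 10% control serum, gave 2. These are 4 of the 8 libraries of the series. The other 4 come from tumours given mLJZD and from cultures given serum that contained mLJZD, an agent whose name the labels do not expand, and they serve here as a separate tumour and culture pair. All 8 libraries carry the same line, with no engineered allele named, and the cultures were grown in RPMI-1640 medium with 10% fetal bovine serum. The labels call every sample colorectal cancer cells, while the protocol says that RNA was taken from tumour tissue or from cultured cells. The labels say nothing of the strain, age or sex of the host mice, of where the cells were transplanted or of tumour size. Saline and control serum are different vehicles, so material, host cells and vehicle cannot be told apart here.

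A transplanted tumour holds the cells of the line together with blood vessels, fibroblasts and immune cells of the host. Interferon from lymphocytes induces guanylate-binding proteins, chemokines and the machinery that shows peptides on MHC class I molecules. Cells in culture face other supplies of oxygen, amino acids, metals and lipid, which the transcription factors HIF, ATF4, NRF2 and SREBP are known to sense. RNA counts of a whole tumour add all these cells, so more cells of a type and more RNA per cell cannot be told apart.

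Depth was similar, with 19692863 and 19793632 counts in the saline tumour libraries and 23426845 and 22196014 in the control cultures. Levels are given in CPM, counts scaled so that every library has the same total, with the tumour libraries first unless the sentence says otherwise. Of 15332 genes tested with edgeR, 12357 (80.6%) passed an adjusted p under 0.05, 6879 (44.9%) higher and 5478 (35.7%) lower in the tumours. At least 2-fold changes numbered 4460 (29.1%) higher and 2123 (13.8%) lower, or 24.9% and 14.6% of genes with the trend described next removed. With so large a share called, a count of called genes in a list says little alone and is read against these shares. Longer transcripts stood higher in the tumours: the median log2 difference was -0.61 for 534 protein-coding genes of up to 1000 bases and 1.23 for 744 genes over 8000 bases. The mLJZD pair showed no such slope, with medians of 0.33 and 0.07 in those bins. Its short genes stood somewhat higher, with a median of 0.25 from 1000 to 1500 bases, and no trend was removed from that pair. With the trend in length and GC content removed from the untreated pair, 12067 genes passed (78.7%), 5796 (37.8%) higher and 6271 (40.9%) lower. The median over all genes was 0.15 in the main fit, -0.04 with the trend removed and 0.09 in the mLJZD pair, and list medians are set beside these. Whether the slope comes from the libraries or from the cells was not tested. No label says that the libraries of a group came from different mice or flasks. The p-values therefore reflect the spread of 2 libraries a group, and that spread may be technical.

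**Figure D1:**
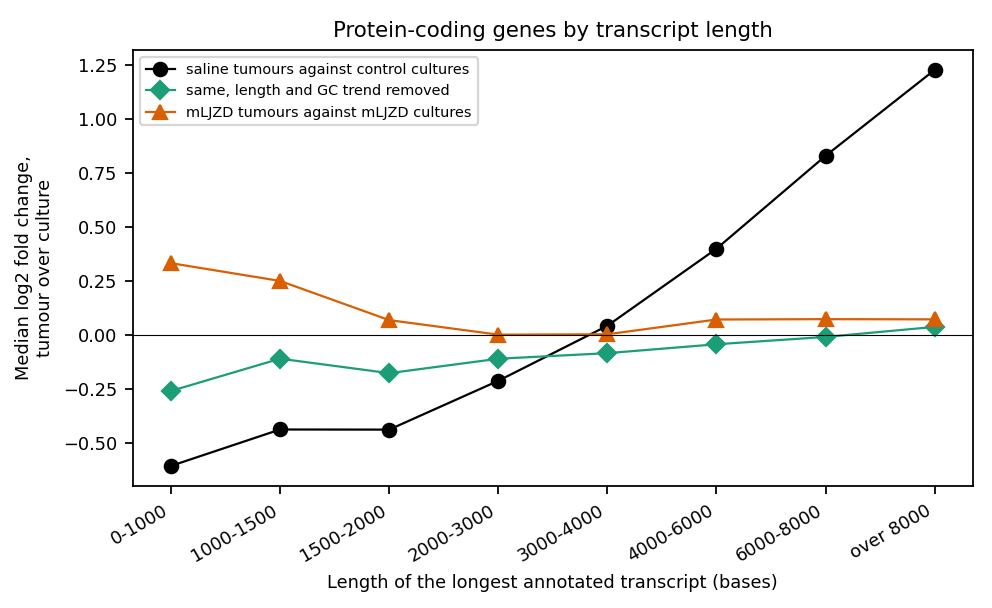
Median log2 difference between tumours and cultures (y) of protein-coding genes by bin of transcript length in bases (x) for the untreated pair, the untreated pair with the length and GC trend removed, and the mLJZD pair. The untreated line climbs from -0.61 to 1.23, while the mLJZD pair stands at 0.33 and 0.07 in the same end bins.

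The tumours held RNA of genes that the cultures did not show. There were 1819 genes, 1585 of them protein-coding, with at least 20 counts over the tumour libraries and at most 3 over the cultures. Together they took 2.09% and 2.12% of the tumour counts and 0.00193% of the culture counts. Of these genes, 1529 also had at least 20 counts in the mLJZD tumours and 1539 at most 3 in the mLJZD cultures. The reverse set, seen in cultures and at most 3 counts in tumours, had 104 genes, 67 of them protein-coding, with 0.0144% of the culture counts. Genes silent in the cultures entered the test only through the tumours and had to differ, so for cell type markers levels and shares of counts are given and no count of calls is used.

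Markers of macrophages and monocytes, the phagocytes that clear cell debris and present antigen, took the largest share of counts among the immune cell lists. The 19 matched markers took 0.387% and 0.392% of the counts in the tumours and 0.00454% and 0.00411% in the cultures. Csf1r, the receptor for the macrophage growth factor CSF1, stood at 198 and 197 CPM in the tumours with no count in either culture, at least 3011-fold higher against a floor of 3 counts over both libraries. The F4/80 antigen Adgre1 stood at 94.1 and 93.4 CPM against no count (at least 1425-fold higher). The complement subunits C1qa (327 and 330 CPM), C1qb (234 and 238 CPM) and C1qc (248 and 251 CPM) were also without a count in the cultures. Lyz2, the lysozyme of myeloid cells, reached 1173 and 1222 CPM against 0.726 and 0.451 (log2 10.81, SE 0.11). Mrc1, the mannose receptor of resident and alternatively activated macrophages, reached 296 and 300 CPM against 1.45 and 1.62. Marco, a scavenger receptor of some tissue macrophages, had no count in any of the 4 libraries. The tumour libraries stood close together and far above both cultures for each of these genes except Marco. The cultures were not free of every marker on the list: Cd14, a receptor for bacterial lipopolysaccharide, stood at 26.5 and 26.4 CPM there against 69.1 and 73.4 in the tumours (log2 1.27, SE 0.07).

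Other leukocyte markers were sparser. Neutrophil markers took 0.00499% and 0.00470% of the tumour counts, and the granule genes Mpo and Elane and the surface marker Ly6g had no count in any of the 4 libraries. Csf3r, the receptor for granulocyte growth factor, stood at 12.6 and 13.3 CPM with none in the cultures, and S100a9, an alarmin of neutrophils and monocytes, at 4.11 and 3.33 CPM. The T cell list took 0.0139% and 0.0145% of the tumour counts, and 15 of its 19 genes had no count in the cultures. Cd8a, the co-receptor of cytotoxic T cells, stood at 21.4 and 22 CPM and Cd4, the co-receptor of helper T cells, at 3.61 and 3.94 CPM. The regulatory T cell factor Foxp3 stood at 1.32 and 0.960 CPM against 0.0427 and 0. Genes of the killing machinery were seen in the tumours alone: the granzymes Gzmb (78.5 and 83.0 CPM) and Gzma (46.9 and 48.6 CPM) and perforin, Prf1 (73.8 and 74.5 CPM), had no count in either culture. Ncr1, a receptor of natural killer cells, stood at 9.24 and 7.07 CPM. Mast cell tryptase Tpsb2 (19.1 and 20.1 CPM) and carboxypeptidase Cpa3 (16.6 and 19.0 CPM) were seen in both tumours and in neither culture. Among B and plasma cell genes, the immunoglobulin constant regions Igkc (20.4 and 17.8 CPM) and Ighm (20.1 and 22.4 CPM) were seen in the tumours. In the mLJZD tumours the B and plasma cell list took 0.0631% and 0.0566% of the counts against 0.00658% and 0.00688% in the saline tumours.

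**Figure D2:**
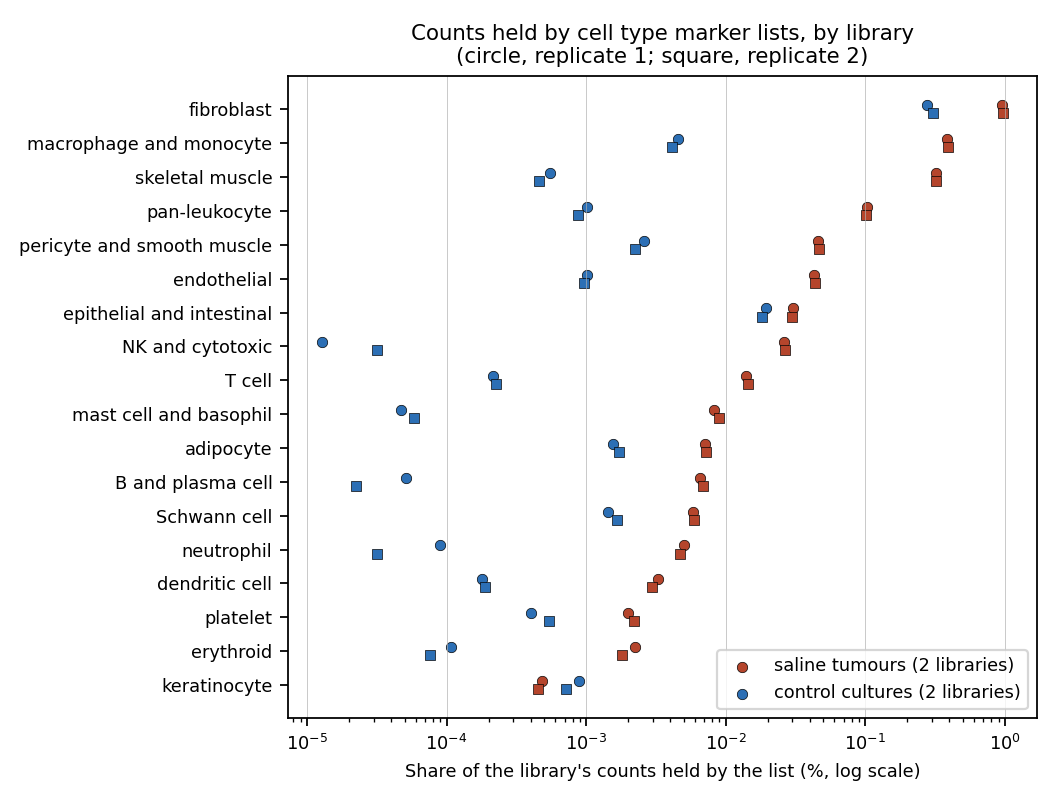
Share of library counts in percent (log axis) taken by each list of cell type markers; colours mark saline tumours and control cultures, circles replicate 1 and squares replicate 2. The macrophage list takes 0.387% and 0.392% in the tumours and under 0.005% in the cultures, and the skeletal muscle list 0.319% and 0.321% against 0.00055% and 0.00046%.

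Stromal and vascular genes were raised as well. Cdh5, the adhesion molecule of endothelial cell junctions, stood at 72.5 and 78.6 CPM with no count in the cultures (at least 1149-fold higher). Pecam1, another endothelial junction protein, had 76.0 and 77.7 CPM against 0.128 and 0, a ratio of 1169 with a 95% counting interval of 400 to 5671. Acta2, the smooth muscle actin of vessel walls and myofibroblasts, stood at 27.7 and 29.9 CPM and the pericyte gene Rgs5 at 30.8 and 32.2 CPM, with no count in the cultures. The fibroblast genes Postn (79.9 and 78.7 CPM) and Thy1 (54.5 and 56.7 CPM) were likewise seen only in the tumours among these 4 libraries. Decorin, Dcn, stood at 175 and 174 CPM against 0 and 0.180. The fibroblast list does not mark host cells alone, since the cultures themselves carried Col1a2, a chain of type I collagen, at 1475 and 1578 CPM. Col1a2 stood at 1987 and 2009 CPM in the tumours, a log2 difference of 0.23 (SE 0.05, edgeR adjusted p = 0.00207) that turned to -0.25 with the length and GC trend removed.

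Genes of fast skeletal muscle were raised too, and Acta1 and Myh4 had the most tumour counts of all genes without a count in the cultures. Their list took 0.319% and 0.321% of the counts in the saline tumours and 0.000546% and 0.000460% in the cultures. Acta1, the actin of skeletal muscle fibres, stood at 808 and 817 CPM and Myh4, the myosin heavy chain of fast fibres, at 771 and 781 CPM, both with no count in the cultures (at least 12354-fold and 11797-fold higher). Ckm, the muscle creatine kinase, stood at 167 and 166 CPM. Myh7, the myosin of slow fibres and heart, had 0.0508 and 0.152 CPM in the tumours and 0.128 and 0 in the cultures, values at or near the floor. Both saline tumours carried the muscle genes at nearly the same level. In the mLJZD tumours the list took 0.0586% and 0.0580% of the counts, below both saline tumours. The part of muscle RNA in the differences of other genes was not tested.

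Sex-linked genes and some cell cycle inhibitors were looked at too. Xist, the RNA that coats an inactive X chromosome, stood at 118 and 99.1 CPM in the tumours and at 0.128 and 0 in the cultures, a ratio of 1648 with a counting interval of 563 to 7993. The Y-linked genes Ddx3y, Uty, Kdm5d and Eif2s3y had at most 1 count in any of the 4 libraries. The labels do not give the sex of the host, so Xist RNA of host cells and of the line cannot be told apart. Cdkn2a and Cdkn2b, cell cycle inhibitors named here after their values were seen, had no count in either culture. Cdkn2a had 29 and 12 counts in the tumours (1.47 and 0.606 CPM), and Cdkn2b had 27 and 20 (1.37 and 1.01 CPM).

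Genes of the interferon response were higher in the tumours with 1 exception. Of 34 tested, 33 passed as higher and none as lower, beside 44.9% and 35.7% of all genes. The median log2 difference was 1.99 beside 0.15 for all genes. The median stayed at 1.87 with the length and GC trend removed and was 1.77 in the mLJZD pair. The list took 0.400% and 0.399% of the tumour counts and 0.0926% and 0.0901% of the culture counts. Gbp2, a guanylate-binding protein that attacks vacuoles of intracellular microbes, stood at 352 and 348 CPM against 3.24 and 3.29 (log2 6.58, SE 0.07, edgeR adjusted p = 2.01e-12). Its relative Gbp5, which also promotes inflammasome assembly, stood at 63.2 and 65.5 CPM against 0.256 and 0.135 (log2 8.15, SE 0.18). In both genes the tumours and cultures were far apart and the libraries of a group close together.

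The interferon-stimulated response element, the site where IRF factors bind, was searched on both strands as the letters GAAA, any 2 bases and GAAA again, in the 300 bases around the start site of RefSeq promoters (build GRCm38.p6). It occurs in 1131 of 32851 promoters (3.44%), or 1079 of 27025 genes (3.99%), and in 18 of the 26 interferon genes with a promoter there (69.2%). Bst2, the list member that did not pass, is among those 18. The match is a description of letters and shows no binding. The promoters of Gbp5 and Gbp2 are shown because these genes changed most among the list members with a mean of at least 10 CPM and a match before the start site. They are the 250 bases before the start site, with the match in capitals, at chr3:142496684-142496933 on the plus strand for Gbp5 and chr3:142620413-142620662 on the plus strand for Gbp2. The match begins 165 bases before the start in Gbp5 and 59 bases before it in Gbp2, on the strand opposite to the gene in both.
Gbp5: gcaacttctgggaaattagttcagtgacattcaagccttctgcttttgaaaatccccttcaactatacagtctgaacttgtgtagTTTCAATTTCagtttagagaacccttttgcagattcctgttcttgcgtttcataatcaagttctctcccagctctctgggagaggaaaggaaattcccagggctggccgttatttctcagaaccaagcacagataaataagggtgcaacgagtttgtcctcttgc
Gbp2: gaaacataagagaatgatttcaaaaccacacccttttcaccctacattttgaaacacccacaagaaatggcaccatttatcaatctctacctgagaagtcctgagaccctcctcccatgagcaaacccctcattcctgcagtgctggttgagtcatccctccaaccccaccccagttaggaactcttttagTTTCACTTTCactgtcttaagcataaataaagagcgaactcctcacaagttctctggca

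The interferon genes did not move by like amounts. Cxcl9, a chemokine that draws T cells and is driven chiefly by interferon gamma, stood at 144 and 131 CPM with no count in the cultures (at least 2092-fold higher). The interferon gamma-induced GTPases Iigp1 (221 and 212 CPM against 0.128 and 0.225) and Igtp (130 and 135 CPM against 8.45 and 5.72) differed by log2 10.06 and 4.06. Ifit3, which takes part in the defence against viral RNA, stood at log2 4.93, and Socs1, which restrains cytokine signalling, at 0.81. Isg15, a ubiquitin-like modifier, stood at 54.6 and 54.7 CPM against 41.3 and 34.8 (log2 0.36, SE 0.09), and Oas3, a sensor of double-stranded RNA, at 77.1 and 72.7 CPM against 52.9 and 58.0 (log2 0.27, SE 0.07). The log2 difference of Oas3 was -0.09 with the trend removed. Bst2, which tethers budding virus to the cell, was the member that did not pass, at 318 and 325 CPM against 327 and 298 (edgeR adjusted p = 0.0812).

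Genes of MHC class I presentation moved the same way, all 13 of 13 passing as higher, beside 44.9% of all genes. Their median was 2.10 (2.12 with the trend removed, 2.32 in the mLJZD pair). The list took 0.844% and 0.848% of the tumour counts and 0.207% and 0.202% of the culture counts. The light chain B2m stood at 2678 and 2687 CPM against 655 and 602 (log2 1.93, SE 0.06). The heavy chain H2-K1 stood at 1221 and 1232 CPM against 192 and 196 (log2 2.50, SE 0.05). H2 genes are near-identical copies that vary between mouse strains, so the split of reads among them is uncertain. The immunoproteasome subunits, which replace standard subunits under interferon, differed more: Psmb9 stood at 155 and 161 CPM against 2.82 and 2.30 (log2 5.78, SE 0.10) and Psmb8 at 129 and 140 CPM against 5.89 and 5.86 (log2 4.35, SE 0.09). The peptide transporter Tap1 stood at 214 and 227 CPM against 27.3 and 26.6. Nlrc5, the transactivator of class I genes, stood at 107 and 92.4 CPM against 10.2 and 10.5. All the class I genes named here had counts in the cultures too. Class II genes were nearly absent there: Cd74, the invariant chain, stood at 792 and 802 CPM against 3.29 and 3.47, and H2-Ab1 at 218 and 209 CPM against no count. The macrophage markers were higher in the tumours too, and the part of macrophage RNA in the interferon, class I and class II differences was not tested.

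**Figure D3:**
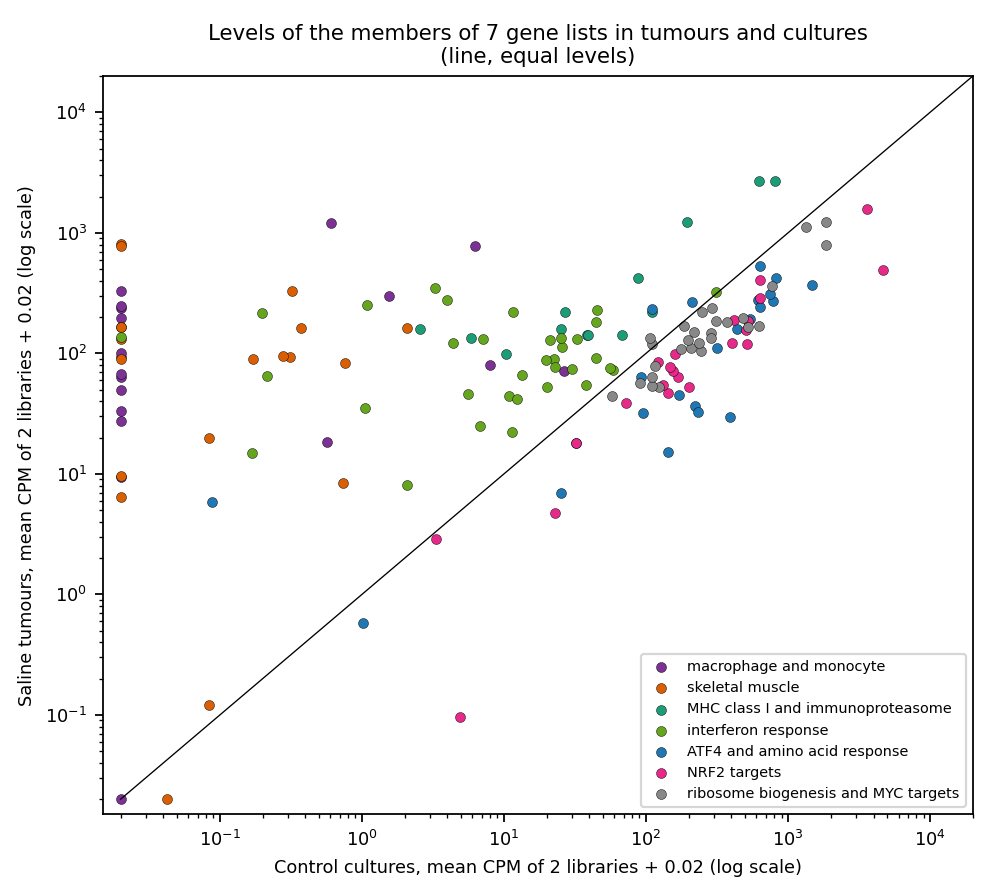
Mean CPM plus 0.02 in control cultures (x) and in saline tumours (y), both on log axes, for members of 7 gene lists; the diagonal marks equal levels. Many macrophage and muscle genes lie at the left edge with no culture counts, class I and interferon genes lie above the diagonal across the range of culture levels, and most ATF4, NRF2 and ribosome biogenesis genes lie below it.

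Inflammatory signals and complement were also raised. Ccl2, the chemokine that recruits monocytes, stood at 131 and 131 CPM and its relative Ccl7 at 57.8 and 54.9 CPM, with no count in the cultures (at least 1990-fold and 857-fold higher). The cytokine Il1b stood at 16.3 and 12.4 CPM against no count, while Tnf was low at 2.49 and 1.72 CPM. Il6 stood at 0.355 and 0.808 CPM and did not enter the test. Nfkbia, the inhibitor that NF-kB induces against itself, stood at 102 and 103 CPM against 16 and 17.9 (log2 2.43, SE 0.07). Ptgs2, the inducible cyclooxygenase, went down, at 103 and 99.7 CPM against 260 and 228 (log2 -1.43, SE 0.07), and so did Csf1, at 200 and 208 CPM against 257 and 274 (log2 -0.54, SE 0.05). Of the 24 genes of the NF-kB list, 11 had at most 3 counts over both cultures, so no count of calls is given for it. The complement list took 0.191% and 0.191% of the tumour counts and 0.00219% and 0.00251% of the culture counts. C3, the central component, stood at 227 and 232 CPM against 1.54 and 1.49 (log2 7.08, SE 0.09), and Serping1, the inhibitor of C1, at 207 and 216 CPM against 0.171 and 0.0451.

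Of 17 immune checkpoint genes tested, 7 had at most 3 counts over both cultures. Those could only pass as higher in the tumours, so no count of higher calls is given. Lower calls, here 5 of 17, make up 35.7% of all genes, and 3 were lower with library totals only. Cd274, which encodes the ligand PD-L1, stood at 33.4 and 34.4 CPM against 1.45 and 1.22 (log2 4.50, SE 0.15, edgeR adjusted p = 1.09e-09). Its receptor gene Pdcd1 stood at 12.3 and 16.6 CPM with no count in the cultures. Vsir, the receptor VISTA of myeloid cells, stood at 67.5 and 65.2 CPM against 0.555 and 0.496. The members that were lower in the tumours included the poliovirus receptor relative Nectin2 (32.9 and 32.5 CPM against 78.7 and 81.9, log2 -1.46, SE 0.06) and the receptor gene Tigit. Tigit, known from T and natural killer cells, stood at 36.0 and 42.3 CPM in the cultures and 17.7 and 18.5 in the tumours (log2 -1.27, SE 0.10). The falls of Cd276 (log2 -0.32) and Pvr (log2 -0.21) were small, and that of Cd80, a ligand of T cell costimulation, was log2 -0.65. All libraries of the cultures lay above those of the tumours for Nectin2, Tigit and Cd80.

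Most matrix genes were higher in the tumours. Of 26 collagen and basement membrane genes tested, 24 were higher and 1 lower, beside 44.9% and 35.7% of all genes. The median was 2.51. Of the 26 genes, 3 had at most 3 counts over both cultures and could only pass as higher. With the length and GC trend removed 17 were higher and 6 lower (median 1.78), and these genes are long. Col3a1, the chain of type III collagen, stood at 510 and 501 CPM against 19.1 and 20.9 (log2 4.50, SE 0.06). Col6a1, of the microfibrillar type VI collagen, stood at 159 and 156 CPM against 10.6 and 11.7 (log2 3.66, SE 0.07). By contrast the basement membrane chain Col4a1 was well expressed in the cultures, at 228 and 240 CPM against 538 and 529 in the tumours (log2 1.03, and 0.42 with the trend removed). Fibronectin, Fn1, had one of the greatest gains in CPM, at 5011 and 5077 against 530 and 626 (log2 2.96, SE 0.08, edgeR adjusted p = 1.49e-10). The greatest gain was that of Spp1, which encodes osteopontin, a secreted phosphoprotein of macrophages and tumour cells, at 5607 and 5670 CPM against 1128 and 1117 (log2 2.17, SE 0.05). Among matrix proteases, Plau, the urokinase, stood at 96.6 and 98.7 CPM with no count in the cultures (at least 1485-fold higher). Mmp3, a stromelysin, stood at 10.6 and 10.1 CPM against 0.0427 and 0.135. Mmp11 went the other way, at 13.2 and 12.2 CPM against 30.9 and 29.7 (log2 -1.42, SE 0.10), and Mmp14, a membrane protease, did not pass, at 128 and 144 CPM against 126 and 129 (edgeR adjusted p = 0.326). The fibroblast list shares Col1a1, Col1a2, Col3a1, Col5a1, Col6a1 and Col6a3 with the matrix list, so the 2 lists are not separate observations. The part of fibroblast RNA in the matrix genes was not tested.

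Mesenchymal and YAP genes moved in both directions. Vim, the intermediate filament of mesenchymal cells, stood at 5495 and 5562 CPM against 4281 and 4353 (log2 0.20, SE 0.05, edgeR adjusted p = 0.00571, lost without saline replicate 2 at 0.064). Snai2, a repressor of epithelial genes, fell from 74.7 and 81.0 CPM in the cultures to 25.9 and 24.7 (log2 -1.78, SE 0.07). The YAP targets Ccn2 (192 and 167 CPM in the cultures, 68.0 and 65.4 in the tumours) and Ccn1 (80.5 and 76.0 CPM against 30.1 and 32.6 in the tumours) fell by 1.59 and 1.48 on the log2 scale. In the TGF-beta, YAP and mesenchymal list 12 of 24 were higher, 8 by 2-fold or more, and 8 lower, 4 by 2-fold or more, with a median of 0.16 that turned to -0.05 with the trend removed. Over all genes 44.9% were higher, 29.1% by 2-fold or more, and 35.7% lower, 13.8% by 2-fold or more. The counts of the list stood near these shares.

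Genes of DNA replication were lower in the tumours as a group. Of 40 tested, 29 passed as lower and 8 as higher, with a median of -0.40. Over all genes 35.7% passed as lower and 44.9% as higher. The list median was -0.46 with the trend removed, where 32 were lower and 4 higher, and -0.67 in the mLJZD pair. With library totals alone for scaling the fall was smaller, with 22 lower and 9 higher (median -0.23). E2f1, the factor that turns on S phase genes, stood at 66.6 and 68.3 CPM against 147 and 150 (log2 -1.30, SE 0.05, edgeR adjusted p = 3.53e-09). Cdt1, which loads the replicative helicase, stood at 107 and 103 CPM against 218 and 219 (log2 -1.21, SE 0.05). The helicase subunits changed less: Mcm2 stood at 222 and 227 CPM against 255 and 268 (log2 -0.38, SE 0.05), and Mcm6 did not pass, at 279 and 282 CPM against 257 and 281 (edgeR adjusted p = 0.103). Pola1, the catalytic subunit of DNA polymerase alpha, was higher, at 141 and 147 CPM against 74.8 and 88.2 (log2 0.66), but its difference was 0.03 with the trend removed and -0.80 in the mLJZD pair.

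Genes of mitosis moved in both directions. Of 39 tested, 14 were higher and 19 lower, beside 44.9% and 35.7% of all genes, with a median of -0.12. With the trend removed 11 were higher and 22 lower (median -0.21), and in the mLJZD pair 6 were higher and 23 lower (median -0.25). With library totals alone for scaling 19 were higher and 13 lower (median 0.05). The mitotic factor Mybl2 stood at 44.3 and 46.3 CPM against 118 and 128 (log2 -1.60, SE 0.06) and the spindle kinase Aurka at 56.6 and 58.1 CPM against 136 and 146 (log2 -1.46, SE 0.06). Mki67, the proliferation marker, went up, at 584 and 563 CPM against 135 and 136 (log2 1.92, SE 0.05), as did the spindle motor Kif11, at 136 and 138 CPM against 51.7 and 53.1 (log2 1.23, SE 0.05). Mki67 has a long transcript, and its difference was 0.73 with the length and GC trend removed and 0.30 in the mLJZD pair. The higher mitotic genes Cenpf and Foxm1 stood at log2 1.28 and 0.31 and turned to -0.01 and -0.04 with the trend removed. Markers of proliferation thus did not move together within these libraries.

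The series title names Chek1 and Cenpm. Chek1, the kinase that ATR activates at stalled replication forks, stood at 23.8 and 23.1 CPM in the tumours and 26.8 and 25.8 in the cultures (log2 -0.33, SE 0.09, edgeR adjusted p = 0.00653). The tumours lay below the cultures by a small margin, and the call was lost with DESeq2 (adjusted p = 0.064), with library totals only (0.128) and without saline replicate 2 (0.066). Cenpm, a component of the inner kinetochore, stood at 32.3 and 33.1 CPM against 50.7 and 52.3 (log2 -0.82, SE 0.07, edgeR adjusted p = 1.39e-06). Its difference was -0.45 with the trend removed and -0.38 in the mLJZD pair. In the list for ATR and DNA repair 14 of 28 genes were higher and 10 lower (median 0.21), against 5 higher and 16 lower with the trend removed (median -0.39) and 1 higher and 23 lower in the mLJZD pair (median -0.79). The untreated counts stood near the shares over all genes, 44.9% higher and 35.7% lower. Atm, the kinase that senses double-strand breaks, has a very long transcript and stood at 66.6 and 59.9 CPM against 11.7 and 15.2 (log2 2.08, SE 0.11). In the mLJZD pair Atm was lower in the tumours, at 45.7 and 53.5 CPM against 87.6 and 86.0.

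Ribosome biogenesis and MYC target genes fell with little exception. Of 28 tested, 26 were lower and 1, Utp20, higher, beside 35.7% and 44.9% of all genes. The median was -0.92 (-1.09 with the trend removed and -1.08 in the mLJZD pair). The list took 0.662% and 0.667% of the tumour counts and 1.15% and 1.15% of the culture counts. Srm, the spermidine synthase and a MYC target, stood at 166 and 173 CPM against 612 and 644 (log2 -2.05, SE 0.05, edgeR adjusted p = 1.59e-10). Nop56, a core protein of small nucleolar particles, stood at 197 and 195 CPM against 485 and 473 (log2 -1.45, SE 0.05). Myc itself stood at 129 and 128 CPM against 194 and 198 (log2 -0.77, SE 0.05), and in the mLJZD pair its log2 difference was 0.20. Utp20 has a long transcript, and its log2 difference of 0.18 became -0.91 with the trend removed.

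Ribosomal protein genes fell in the untreated pair and not in the mLJZD pair. Of 78 tested, 61 were lower and 3 higher (median -0.67), and 57 lower and 11 higher with the trend removed (median -0.38). Over all genes 35.7% were lower and 44.9% higher, or 40.9% and 37.8% with the trend removed. In the mLJZD pair 62 were higher and 6 lower, beside 39.9% and 31.9% of all genes, with a median of 0.60. Protein-coding genes of up to 1000 bases had a median of 0.33 in that pair, from which no trend was removed. Rpl8 stood at 1712 and 1731 CPM against 3718 and 3471 (log2 -1.22, SE 0.06). Rpsa, the laminin receptor protein of the small subunit, stood at 1951 and 1995 CPM against 3979 and 3703 (log2 -1.12, SE 0.06) and at log2 0.26 in the mLJZD pair. The ribosomal protein list took 5.72% and 5.84% of the saline tumour counts and 7.14% and 6.80% of those of the mLJZD tumours. In the cultures it took 8.57% and 7.76% with control serum and 4.69% and 4.81% with mLJZD serum. The cultures thus spanned a wider range than the tumours. Ribosomal protein genes have many processed copies that can share reads, such as Rps2-ps10, at 1146 and 1128 CPM against 3055 and 2932.

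The amino acid response stood lower in the tumours than in the cultures. ATF4 is a transcription factor made when amino acids run short or the integrated stress response is active, and it induces amino acid synthesis and transport genes. Of 23 genes of this response, 19 were lower and 3 higher, beside 35.7% and 44.9% of all genes. The median was -1.62 (-1.61 with the trend removed and -1.01 in the mLJZD pair). The list took 0.367% and 0.367% of the tumour counts and 0.870% and 0.876% of the culture counts. Trib3, a pseudokinase that ATF4 induces, stood at 30.8 and 28.6 CPM against 388 and 393 (log2 -3.88, SE 0.06, edgeR adjusted p = 5.47e-12). Chac1, which degrades glutathione, stood at 14.8 and 15.6 CPM against 140 and 148 (log2 -3.41, SE 0.07). Pycr1, an enzyme of proline synthesis, stood at 7.11 and 6.72 CPM against 23.9 and 26.4 (log2 -2.03, SE 0.12). Every tumour library was well below every culture library for these genes.

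The C/EBP-ATF response element, to which ATF4 binds with a C/EBP partner, was searched as TGATGNAA on both strands of the same promoters. It occurs in 1304 of 32851 promoters (3.97%), or 1219 of 27025 genes (4.51%), and in 7 of the 21 ATF4 list members with a promoter there (33.3%). Those 7 include Atf3 and Vldlr, which were higher in the tumours (log2 6.19 and 0.92). Trib3 has its only match after the start site. Chac1 and Pycr1 are shown by the same choice as the interferon genes, with the match in capitals. The windows are chr2:119350992-119351241 on the plus strand for Chac1 and chr11:120643749-120643998 on the minus strand for Pycr1, 250 bases before each start site in GRCm38.p6. The match begins 193 bases before the start in Chac1, on the strand opposite to the gene, and 103 bases before it in Pycr1, on the strand of the gene. Neither pair of promoters holds a match to the other motif.
Chac1: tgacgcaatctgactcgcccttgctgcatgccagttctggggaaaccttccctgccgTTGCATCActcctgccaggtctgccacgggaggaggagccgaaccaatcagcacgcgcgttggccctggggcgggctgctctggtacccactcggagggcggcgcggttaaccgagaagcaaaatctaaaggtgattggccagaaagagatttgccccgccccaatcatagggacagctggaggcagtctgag
Pycr1: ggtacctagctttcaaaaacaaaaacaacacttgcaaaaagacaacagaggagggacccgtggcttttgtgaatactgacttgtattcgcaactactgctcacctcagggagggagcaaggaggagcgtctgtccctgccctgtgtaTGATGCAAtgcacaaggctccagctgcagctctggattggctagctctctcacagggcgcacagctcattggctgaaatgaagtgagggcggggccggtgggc

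Among the enzymes of the response, Phgdh, the gate to serine synthesis, stood at 363 and 382 CPM against 1472 and 1477 (log2 -2.15, SE 0.05). Asns, the asparagine synthetase, stood at 282 and 261 CPM against 785 and 778 (log2 -1.69, SE 0.05). The transporter subunits Slc7a5 (240 and 240 CPM against 611 and 667) and Slc3a2 (190 and 194 CPM against 538 and 538) fell by 1.57 and 1.65 on the log2 scale. Ddit3, the stress factor CHOP, stood at 37.5 and 36.3 CPM against 219 and 224 (log2 -2.75, SE 0.05) and differed by only -0.46 in the mLJZD pair. Atf4 RNA stood at 432 and 406 CPM against 829 and 806 (log2 -1.13, SE 0.05). The 3 higher members were Slc7a1, Vldlr and Atf3. Slc7a1 and Vldlr stood at log2 0.17 and 0.92 and turned to -0.67 and -0.09 with the trend removed, while Atf3 stood at 4.87 and 6.77 CPM against 0 and 0.135.

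**Figure D4:**
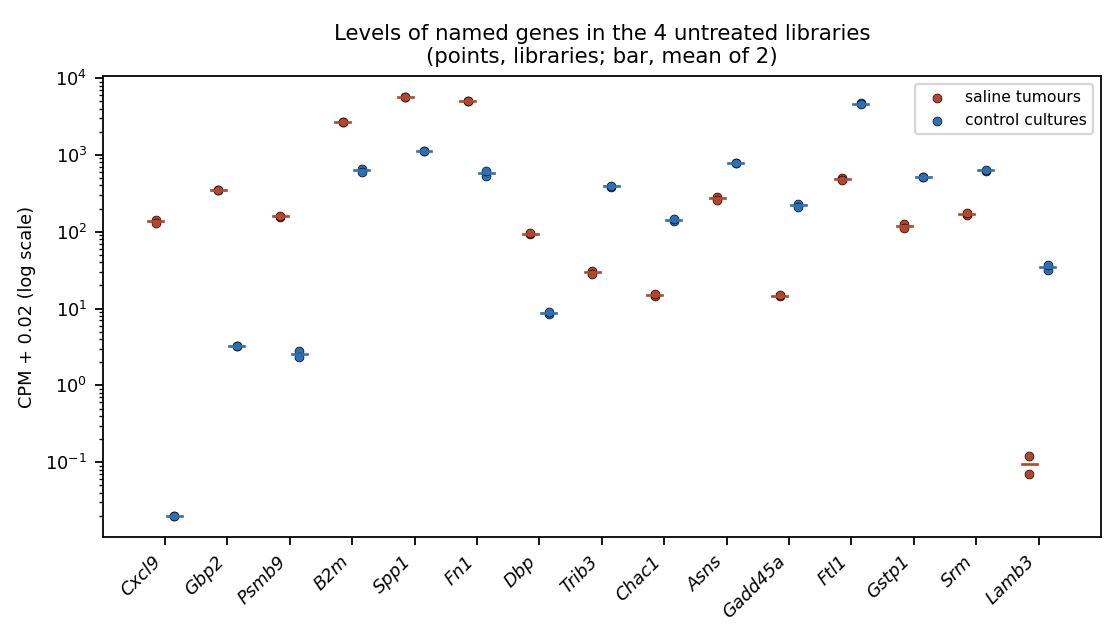
CPM plus 0.02 on a log axis for genes named in the text, with 1 point per library of saline tumours and control cultures and a bar at their mean; Cxcl9 has no count in the cultures and is drawn at 0.02. The points of a group lie close together, with Cxcl9, Gbp2 and Psmb9 far higher in the tumours and Trib3, Chac1, Gadd45a, Ftl1 and Lamb3 far higher in the cultures.

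Genes of the antioxidant factor NRF2 were lower in the tumours without exception in direction among those that passed. Of 22 tested, 21 were lower and none higher, beside 35.7% and 44.9% of all genes. The median was -1.40 (-1.59 with the trend removed and -1.14 in the mLJZD pair). The list took 0.416% and 0.413% of the tumour counts and 1.35% and 1.30% of the culture counts. Ftl1, the ferritin light chain that stores iron, had the greatest fall in CPM of all genes, at 501 and 479 against 4738 and 4563 (log2 -3.41, SE 0.06, edgeR adjusted p = 1.26e-11). Ferritin genes also respond to iron through their translation, which RNA counts do not show. Gclm, the regulatory subunit of glutathione synthesis, stood at 51.8 and 53.9 CPM against 205 and 195 (log2 -2.08, SE 0.06), and Txnrd1, the thioredoxin reductase, at 156 and 159 CPM against 485 and 521 (log2 -1.83, SE 0.05). Gstp1, a glutathione transferase with near-identical neighbours, stood at 125 and 114 CPM against 515 and 512 (log2 -2.27, SE 0.06). Gsta1 had 0.152 and 0 CPM in the tumours against 5.08 and 4.64, a ratio of 64.0 toward the cultures with a counting interval of 21.6 to 313. Nqo1, a quinone reductase often used to mark NRF2 activity, was low in all 4 libraries and did not pass, at 2.79 and 2.98 CPM against 2.65 and 4.01 (edgeR adjusted p = 0.226). Metallothionein genes, which bind zinc and copper, also fell: Mt2 stood at 5.08 and 5.41 CPM against 152 and 121 (log2 -4.87, SE 0.14), and Mt1 at 318 and 318 CPM against 766 and 599 (log2 -1.27, SE 0.10). Tfrc, the receptor for iron-loaded transferrin, rose to 123 and 119 CPM from 45.4 and 45.5 (log2 1.25), with a log2 difference of -0.35 in the mLJZD pair.

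Glycolysis and hypoxia genes were lower in the untreated tumours than in the cultures. Of 30 tested, 22 were lower and 5 higher, beside 35.7% and 44.9% of all genes. The median was -1.04 (-1.15 with the trend removed). In the mLJZD pair 13 were higher and 13 lower, with a median of 0.03. The list took 0.979% and 0.992% of the tumour counts against 2.18% and 2.22% of the culture counts. Ldha, which turns pyruvate into lactate, stood at 1508 and 1539 CPM against 4466 and 4464 (log2 -1.71, SE 0.05). Pgk1, a glycolytic kinase, stood at 943 and 958 CPM against 2484 and 2569 (log2 -1.57, SE 0.05). Car9, a carbonic anhydrase and a common marker of hypoxic cells, stood at 5.79 and 3.79 CPM against 23.6 and 25.3 (log2 -2.51, SE 0.17). In the mLJZD pair Car9 was higher in the tumours, at 36.0 and 35.0 CPM against 10.5 and 12.4. Vegfa, the vessel growth factor, stood at 110 and 99.0 CPM against 218 and 205 (log2 -1.18, SE 0.06). Members that rose were Bnip3l, Kdm3a, Adm, Egln3 and Slc2a3, the last 2 with no count in the cultures. Slc2a3, a high-affinity glucose transporter, stood at 7.16 and 6.57 CPM, and Kdm3a, a histone demethylase that HIF induces, at 115 and 114 CPM against 37.2 and 36.4 (log2 1.47, SE 0.06).

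Genes of cholesterol synthesis were mostly higher in the tumours. Of 21 genes of cholesterol synthesis and uptake, 15 were higher and 2 lower, beside 44.9% and 35.7% of all genes. The median was 0.65 (0.56 with the trend removed and 1.08 in the mLJZD pair). SREBP2 turns these genes on when cells lack sterol. Insig1, the sterol sensor that holds SREBP back, stood at 130 and 125 CPM against 13.7 and 15 (log2 2.98, SE 0.07). Among fatty acid genes, 9 of 12 were higher and 2 lower (median 0.81). With the trend removed 7 were higher and 5 lower (median 0.33), beside 37.8% and 40.9% of all genes. The 5 lower stood near that share. The mLJZD pair had 7 higher and 1 lower (median 0.37). The desaturases Scd1 (620 and 622 CPM against 107 and 120) and Scd2 (812 and 838 CPM against 268 and 295) rose by log2 2.29 and 1.39. Fasn, the fatty acid synthase, stood at 359 and 361 CPM against 170 and 199 (log2 0.80), and its difference was -0.16 with the trend removed. Adipocyte markers took 0.00710% and 0.00721% of the tumour counts, and the defining genes Adipoq and Lep stood at no more than 0.303 CPM.

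The nuclear genes of oxidative phosphorylation all passed as lower, 28 of 28, beside 35.7% of all genes. Their median was -1.13 (-0.94 with the trend removed). In the mLJZD pair the median was -0.50, with 22 lower and 3 higher. Cyc1, cytochrome c1 of complex III, stood at 130 and 137 CPM against 418 and 405 (log2 -1.78, SE 0.05). Atp5b, the catalytic subunit of ATP synthase, stood at 1350 and 1382 CPM against 2313 and 2380 (log2 -0.94, SE 0.05). Genes on the mitochondrial DNA did not follow: they took 1.71% and 1.60% of the tumour counts and 0.986% and 1.02% of the culture counts. Of 13 tested, 7 were higher and 3 lower, beside 44.9% and 35.7% of all genes. Their median of 0.16 stood near the 0.15 of all genes, so no direction is given for the list. The mLJZD pair had 5 higher and 1 lower (median 0.37). Its cultures stood apart, at 0.567% and 1.05% of the counts, both below the mLJZD tumours. mt-Co1, a core subunit of complex IV, stood at 8075 and 7413 CPM against 3284 and 3572 (log2 1.01, SE 0.06), while mt-Nd1, of complex I, stood at 1268 and 1216 CPM against 2373 and 2250 (log2 -1.06, SE 0.06). Nuclear copies of mitochondrial genes can share reads with them.

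**Figure D5:**
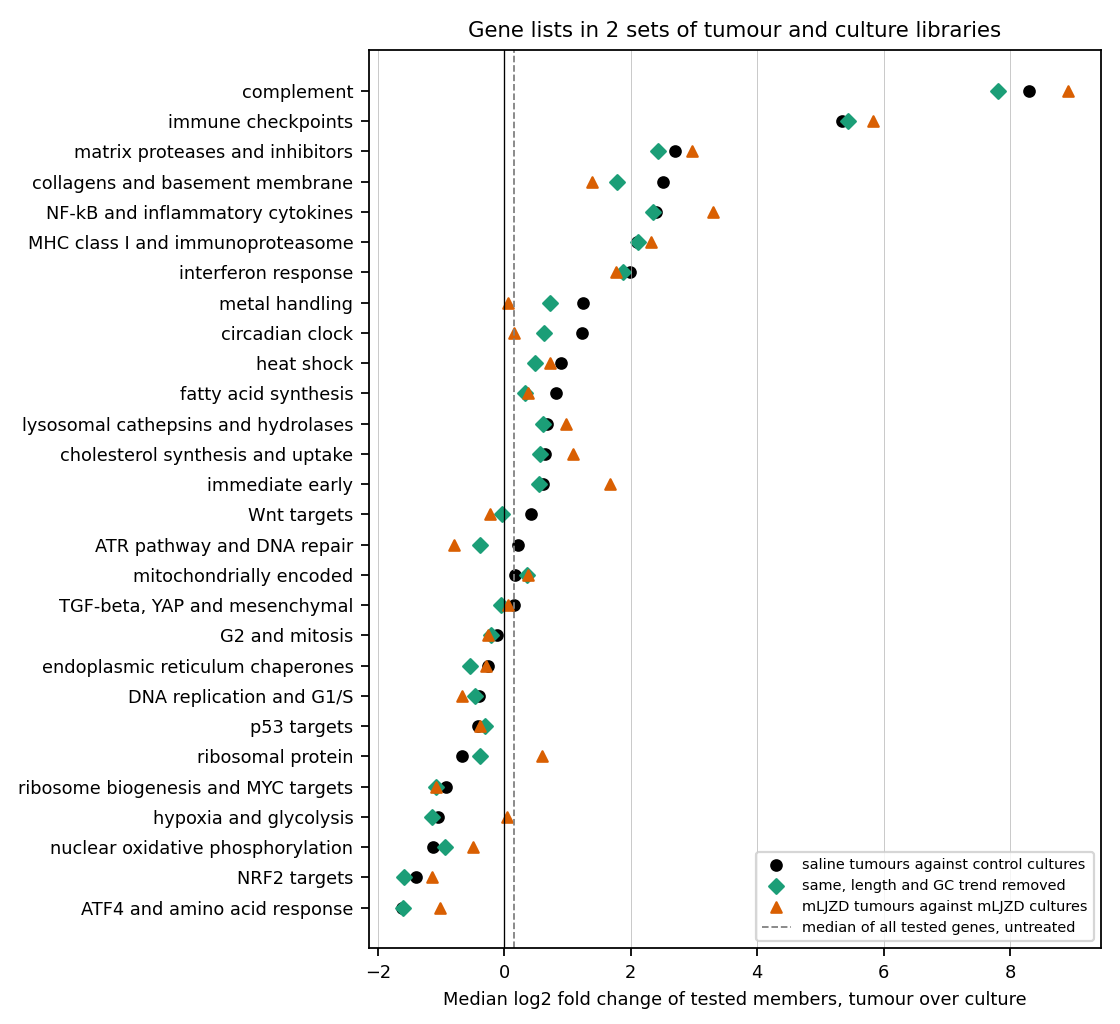
Median log2 difference between tumours and cultures (x) for 28 pathway lists in the untreated pair, with the length and GC trend removed, and in the mLJZD pair; the dashed line marks the median of all genes in the main fit. Interferon, class I, matrix and cholesterol lists lie to the right in all 3 and ribosome biogenesis, ATF4 and NRF2 lists to the left, while ribosomal protein genes stand at -0.67 and 0.60 and hypoxia genes at -1.04 and 0.03 in the untreated and mLJZD pairs.

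Stress and clock genes gave mixed pictures. Over all genes 44.9% passed as higher and 35.7% as lower, and the counts of calls here are read beside these shares. Of the p53 targets, 12 of 23 were lower and 7 higher. Gadd45a, a growth arrest gene induced by p53 and by ATF4, had one of the greatest falls, at 14.4 and 14.9 CPM against 233 and 211 (log2 -4.08, SE 0.08, edgeR adjusted p = 2.09e-11), and Bax, a promoter of apoptosis, stood at 55.0 and 56.4 CPM against 272 and 279 (log2 -2.47, SE 0.05). Cdkn1a, which encodes p21, changed less, at 192 and 201 CPM against 243 and 259 (log2 -0.51, SE 0.05). Of the heat shock genes, 10 of 16 were higher: the inducible chaperone Hspa1b stood at 35.2 and 37.0 CPM against 1.07 and 1.31 (log2 4.76, SE 0.15) and shares reads with its copy Hspa1a. Immediate early genes, which respond within minutes to handling and growth factors, included Fos at 11.7 and 11.6 CPM against 0.256 and 0.225 (log2 5.40, SE 0.27) and Egr1 at 260 and 262 CPM against 93.4 and 102 (log2 1.26, SE 0.05). Jun rose, at 204 and 205 CPM against 69.7 and 67.4 (log2 1.41), and Ier3 fell, at 17.8 and 17.0 CPM against 43.2 and 38.8 (log2 -1.40). In the endoplasmic reticulum list 11 of 17 genes were lower, the chaperone Hspa5 by only 0.27 on the log2 scale, at 1172 and 1163 CPM against 1249 and 1263. Among clock genes, Dbp, an output gene of the clock, stood at 93.2 and 96.5 CPM against 8.54 and 8.97 (log2 3.28, SE 0.08), and the repressor Nr1d1 at 149 and 152 CPM against 28.3 and 28.8 (log2 2.23, SE 0.06). Nfil3, which opposes Dbp at the same sites, went the other way, at 20.3 and 17.3 CPM against 70.9 and 75.6 (log2 -2.12, SE 0.09), and the core activator Arntl did not pass (29.0 and 22.7 CPM against 23.1 and 21.2, edgeR adjusted p = 0.672). The median of the 18 clock genes tested was 1.22, with 11 higher and 5 lower, and it fell to 0.62 with the trend removed. In the mLJZD pair the clock median was 0.15, with 8 higher and 7 lower of 17 tested. The labels give no hour of collection, and its part was not tested.

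Of 19 lysosomal genes tested, 13 were higher and 5 lower in the tumours, beside 44.9% and 35.7% of all genes. Of these, 3 had at most 3 counts over both cultures and could only pass as higher. Ctss, a cathepsin of antigen-presenting cells, stood at 360 and 367 CPM and Ctsc, which activates granule proteases, at 463 and 474 CPM, both with no count in the cultures (at least 5527-fold and 7127-fold higher). Ctsb, found in most cells, stood at 1291 and 1331 CPM against 601 and 635 (log2 0.92, SE 0.05). Ctsl fell, at 1290 and 1319 CPM against 3007 and 2975 (log2 -1.36, SE 0.05). The part of macrophage RNA in these levels was not tested.

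Markers of gut epithelium differed in level. Epcam and Cdh1, the adhesion molecules of epithelial cells, had no count in the cultures and stood at 0.355 and 0.505 CPM and at 2.95 and 3.28 CPM in the tumours. Cdx2, the factor of intestinal identity, stood at 0.470 and 0.451 CPM in the cultures and had no count in the tumours. Krt20, a keratin of the gut lining, was well expressed, at 276 and 271 CPM in the tumours and 146 and 141 in the cultures (log2 0.77, SE 0.05). In the mLJZD pair Krt20 stood at log2 -0.25. Krt18 fell, at 16.6 and 15.8 CPM against 39.0 and 30.9 (log2 -1.27, SE 0.12). The median of the 8 tested epithelial genes was -0.25 and changed sign under several settings, so no direction is given for the list. Of the Wnt targets, Ccnd1, a G1 cyclin, stood at 1101 and 1115 CPM against 669 and 698 (log2 0.53), and Lgr5, the intestinal stem cell receptor, had no count in any of the 4 libraries.

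Few genes went from clear expression in the cultures to almost none in the tumours. Lamb3, the beta chain of laminin 332, stood at 31.5 and 37.1 CPM in the cultures and at 0.102 and 0.0505 in the tumours, with 3 counts over both tumour libraries. The ratio toward the cultures was 450 with a counting interval of 154 to 2185. Igsf11, an adhesion molecule and a ligand of VISTA, stood at 6.10 and 8.06 CPM in the cultures with no count in the tumours, at least 92.9-fold lower there. Ceacam10, Mogat2, Psca, Snhg7os, Gdap1l1, Nr1h4 and mt-Ts2 also had no count in the tumours and between 0.991 and 1.96 CPM in the cultures. The 10 most abundant of the 104 genes seen in cultures alone held 49.0% of their counts, against 19.2% for the 10 most abundant of the 1819 genes on the tumour side.

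The mLJZD tumours and cultures share no library with the untreated pair and gave a separate comparison of the same materials. There 10915 of 15218 genes passed (71.7%), 6068 (39.9%) higher and 4847 (31.9%) lower, with 24.8% at least 2-fold higher and 8.56% at least 2-fold lower. Of 4093 genes at least 2-fold higher in the untreated tumours and tested in both pairs, 3495 (85.4%) passed as higher in the mLJZD pair and 99 (2.42%) as lower. This set includes genes with at most 3 counts over the untreated cultures. Of the 1819 such genes, 1529 had at least 20 counts in the mLJZD tumours and 1539 at most 3 in the mLJZD cultures. Such genes had to differ, so part of the 85.4% was fixed in advance, and the share without them was not computed. Of 2047 genes at least 2-fold lower, 1635 (79.9%) passed as lower and 33 (1.61%) as higher. Over all 11914 untreated calls tested in both, 8087 (67.9%) had the same direction and passed, and 1102 (9.25%) passed with the other direction. Among named genes, Gbp2 (log2 6.00), Ftl1 (-2.27), Trib3 (-1.83) and Srm (-1.38) kept their direction in the mLJZD pair, and Car9, Atm, Rpsa and Mt1 had the other one. Since those samples also received mLJZD, a difference between the pairs cannot be told apart from an effect of the agent in tumours or in cultures.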

How the data were processed

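The table holds whole-number counts per gene for 8 RNA-seq libraries, as deposited by the authors. The submitters' processing notes name HISAT2 2.2.1, featureCounts 2.0.3, SAMtools 1.14, FastQC 0.12.1, Trim Galore and the build GRCm39. Per the labels' protocols RNA was extracted with a Vazyme Fast Pure kit and libraries were made with a VAHTS Universal V10 kit. Neither the labels nor the notes state the strand setting or the handling of reads with several matches, so genes with near-identical copies or antisense partners are uncertain.

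Gene names and transcript lengths came from GENCODE M21. Of 56953 gene identifiers, 52029 had a name, and the others held 0.343 to 0.596% of the counts. Genes passing filterByExpr were tested with edgeR 4.0.16 (R 4.3.3; TMM, quasi-likelihood F test, two-sided, Benjamini-Hochberg adjustment) on the 4 untreated libraries, and likewise on the 4 mLJZD libraries. A call is an adjusted p under 0.05. An exact permutation of single values, 2 against 2, cannot go under p = 0.333 and was not used. Bounds ("at least") set 3 counts over both libraries of the group at 0, and intervals cover counting error only. No list median printed changes when such genes are set at their bound. In a variant, the trend of each library in log length and GC content was removed. The code was tested on simulated data with known changes.

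The members and the 48 gene lists were chosen with earlier results of these data known. The rule named Chek1 and Cenpm, the 10 largest log2 changes (where the group with more had a mean of 1 CPM or over) and the 10 largest CPM differences per direction, up to 4 called members of each list with the largest change, and members that went against their list. Other list members were named after their values were seen. The alternatives were library totals only, upper-quartile scaling, DESeq2 size factors, the DESeq2 1.42.0 test, other filters, all 8 libraries, a replicate block, removal of the trend, and leaving out each library. Libraries of a group were not identical: the chi-square per degree of freedom was 2.68 between the saline tumours and 7.34 between the control cultures.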

Additional observations from a re-analysis of the deposited data

Results flagged for a closer look

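Among the genes of the naming rule and the other genes named in the text, 34 passed in the untreated and in the mLJZD pair with opposite signs, and edgeR's test of the difference between the pairs, over all 8 libraries, also passed. The untreated pair climbs with transcript length, so these genes are given in 2 sets, by the untreated call with that trend removed. In the mLJZD pair, from which no trend was removed, genes of up to 1000 bases had a median of 0.33. Reversals were not particular to the named genes. Over all 11914 untreated calls tested in both pairs, 1102 (9.25%) passed with the other direction. The share among the named genes was not computed, so the 34 are not read as an excess. Values are the untreated minus the mLJZD log2 difference.

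In 18 of the 34 the untreated call and its direction held with the length and GC trend removed. Lower in the untreated tumours and higher in the mLJZD tumours were Car9 (-4.15), Mt1 (-1.75), the keratin Krt10 (-1.74), Rpsa (-1.4), the urokinase receptor Plaur (-1.09), the fatty acid elongase Elovl1 (-1.04), Myc (-0.992), Cdkn1a (-0.887), the clock gene Per1 (-0.856) and Pvr (-0.509). Higher in the untreated and lower in the mLJZD tumours were Atm (2.87), Tfrc (1.58), the topoisomerase Top2a (1.08), Krt20 (0.996), the mitotic kinesin Kif20a (0.913), anillin, Anln (0.837), Hmmr (0.833) and Uhrf1 (0.786). The untreated log2 differences of some of these shrank when the trend was removed, from 2.08 to 0.88 for Atm, from 0.81 to 0.21 for Top2a and from 0.61 to 0.16 for Anln. The adjusted p of the difference between the pairs was 4.43e-10 for Car9, 4.37e-10 for Atm and 0.000375 for Krt10.

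In the other 16 the untreated call or its direction did not hold with the trend removed. These were Cenpf (1.56), Pola1 (1.45), Pole (1.45), Utp20 (1.31), Rrm2b (0.896), Mcm4 (0.795), Oas3 (0.698), Cdc6 (0.668), Sel1l (0.635), Foxm1 (0.581), Slc7a1 (0.466), Kif23 (0.456) and Canx (0.386), higher in the untreated tumours, and Jund (-1.86), Pmvk (-0.849) and Hexa (-0.531), lower there.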

How the results depend on the processing

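Over the settings tried, between 10714 and 12567 genes passed, against 12357 in the main fit. Leaving out 1 library gave 10714 to 12285, DESeq2 gave 11347, and library totals alone gave 12289, 7624 of them higher, with a shift of 0.16 in the median of all genes. Same-numbered libraries did not deviate together across genes (correlation -0.00257). With 2 libraries a group this cannot exclude a pairing or a shared batch. The fit with the replicate block called 12125 genes. Of 303 named genes, 258 kept their call and direction in every setting that tested them, and 41 of 47 list medians kept their sign.

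The medians that changed sign were those of platelet genes (0.081, between -0.096 and 0.243 when a library was left out), epithelial genes (-0.253; 0.783 with DESeq2, 0.765 without a filter, 0.751 with all 8 libraries, 0.00937 with the trend removed, and between -1.30 and 0.794 when a library was left out) and mitosis genes (0.045 with library totals). With the length and GC trend removed the medians became -0.388 for ATR and repair, -0.031 for Wnt targets (main 0.42) and -0.047 for TGF-beta and YAP genes. The same removal turned Mcm4 (-0.077), Cdc6 (-0.19), Pole (-0.34), Foxm1 (-0.038), Cenpf (-0.0081), Utp20 (-0.91), Slc7a1 (-0.67), Vldlr (-0.092), Canx (-0.26), Dnajc3 (-0.0016), Edem1 (-0.58), Sel1l (-0.40), Jund (0.054) and Hexa (0.083; 0.015 with library totals). Beyond the alternative's own construction, the cause was not tested. Genes under 3 counts a group cannot be told from 0 at this depth, and 2 libraries a group limit the precision.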

Other observations

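Markers of other cell types took small shares of the counts. The dendritic cell list took 0.00325% and 0.00296% in the saline tumours against 0.000179% and 0.000189% in the control cultures. The mast cell and basophil list took 0.00830% and 0.00895% against 4.7e-05% and 5.86e-05%. Erythroid genes took 0.00222% and 0.00182% against 0.000107% and 7.66e-05%. The Schwann cell list took 0.00583% and 0.00588% against 0.00143% and 0.00165%, so it does not mark host cells alone. Keratinocyte genes were no higher in the tumours, at 0.000482% and 0.000455% against 0.000884% and 0.000716% in the cultures.

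Among genes of metal handling outside the metallothioneins, Atp7a, the copper export pump, stood at 38.9 and 43.1 CPM in the tumours and 2.35 and 2.61 in the cultures (log2 3.89). Lgals1, which encodes galectin 1, fell to 2065 and 2009 CPM from 4025 and 3680 (log2 -1.08), and Tpt1, the translationally controlled tumour protein, rose to 4803 and 4768 CPM from 2788 and 2576 (log2 0.67).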
